A study of Mus musculus with 4 samples.

Results

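The genes of the proteasome were followed in mRNA sequencing libraries of the soleus, a slow postural muscle of the lower hindlimb, from mice with and without HuR in muscle. A gene was taken as a member when its symbol began with Psm, a letter from a to g and a number, which gave 49 of the 23420 genes in the table. By their known roles, 14 of the members encode the alpha and beta rings of the 20S core with its constitutive catalytic subunits, 3 the immunoproteasome catalytic subunits (Psmb8, Psmb9 and Psmb10), and 17 the 19S regulatory particle. The others encode 3 chaperones of the 19S base, 4 activators, the inhibitor PI31, 4 chaperones of the 20S core, 2 tissue-restricted 20S subunits (Psma8 and Psmb11), and Psmc3ip, a recombination partner that carries the name without being a subunit. Tests covered the 47 members whose normalized counts averaged 10 or more. Only Psma8 and Psmb11 fell below that level. A normalized count here is the number of reads assigned to a gene, divided by a size factor for the library, so it follows transcript length and sequencing yield as well as the amount of RNA.

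The proteasome degrades proteins tagged with ubiquitin. Its 20S core is a barrel of stacked rings in which outer alpha rings gate the entrance and inner beta rings carry the proteolytic sites. The 19S particle binds ubiquitin chains, removes them and feeds the unfolded substrate into the core with a ring of ATPases, whereas PA28 and PA200 open the core without ATP. Inducible beta subunits replace the constitutive ones in immune cells and after interferon and alter the peptides made for MHC class I. In skeletal muscle this system breaks down myofibrillar proteins during wasting, and the transcription factor NRF1, encoded by Nfe2l1, raises the transcription of proteasome genes when proteasome activity falls.

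All mice were 10 weeks old and on a C57BL/6 background. The muHuR-KO mice (1-9 and 3-9) carried Cre recombinase under the MyoD promoter together with Elavl1, the gene of HuR, floxed around exon 2, whereas the control littermates (3-8 and 3-12) lacked Cre. The labels write these genotypes as MyoDCre+;LoxP-/- and MyoDCre-;LoxP-/-. HuR is an RNA-binding protein that attaches to AU-rich elements and changes the stability and translation of mRNAs. The MyoD promoter drives Cre in the muscle lineage, so vessels, nerve, connective tissue and leukocytes in the whole muscle keep HuR, and a smaller share of a cell type cannot be told apart from less RNA per cell. Elavl1 had normalized counts of 1349.5 and 1190.1 in control 3-8 and control 3-12, and 1209.7 and 1205 in muHuR-KO 1-9 and muHuR-KO 3-9, which differ by -0.070 ± 0.25 (SE) on the log2 scale between the genotypes. The count covers all exons and does not check the loss of exon 2, and libraries are named as labelled.

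The reads assigned to genes, which are fewer than the reads sequenced, summed to between 13301715 (control 3-12) and 33348893 (muHuR-KO 3-9) per library. Muscle transcripts such as Myh7 and Acta1 were abundant in each library. Control 3-8 stood apart from the other 3 libraries. For transcripts poor in G and C, its counts were lower, and for transcripts rich in G and C they were higher. Across the 13199 tested genes with a known transcript, Spearman's rho between GC content and the difference of the muHuR-KO mice from control 3-8 was -0.60, against 0.22 for the difference from control 3-12, as a description over genes that share these libraries. Because the controls differ in this way, the tests were run against both controls together and against each of them. For some genes, values are given for 1 of these comparisons only.

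Base composition varied widely among the members, from 37.0% GC in the principal transcript of Psmc6 to 58.3% in that of Psmd3. To show what this means in sequence, a coding stretch of 60 bases that has nearly the composition of the whole transcript is printed for 5 members that recur below, from GENCODE M21 on GRCm38, in coding direction and with G and C in capitals.

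The stretches of Psmc6 (chr14:45330846-45330905, exon 2), Psma2 (chr13:14616737-14616796, exon 3), Psme4 (chr11:30791152-30791211, exon 2), Psmb6 (chr11:70525891-70525950, exon 2) and Psmd3 (chr11:98685489-98685548, exon 2) all lie on the plus strand.
Psmc6: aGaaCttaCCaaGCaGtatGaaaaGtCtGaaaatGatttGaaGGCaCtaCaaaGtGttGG
Psma2: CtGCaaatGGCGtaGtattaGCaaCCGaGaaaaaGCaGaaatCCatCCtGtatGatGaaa
Psme4: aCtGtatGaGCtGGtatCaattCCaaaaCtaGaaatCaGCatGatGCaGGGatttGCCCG
Psmb6: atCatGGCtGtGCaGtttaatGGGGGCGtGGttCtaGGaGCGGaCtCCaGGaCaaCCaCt
Psmd3: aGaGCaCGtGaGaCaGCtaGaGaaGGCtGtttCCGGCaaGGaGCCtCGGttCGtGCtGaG

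These stretches hold 36.7%, 40.0%, 43.3%, 55.0% and 58.3% G and C. Psma2 differs within its own transcript: its coding sequence has 48.1% GC, but the principal transcript, which is 2911 bases long for 702 coding bases, has 39.4%. Psmc6 differs as well, with 41.8% GC in its 1167 coding bases and 37.0% in the principal transcript.

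Whether the loss of HuR in muscle went with a different level of proteasome mRNA was first asked of the whole family. Most members were lower in the muHuR-KO mice than in control 3-8, and nearly level with control 3-12. Against both controls the median log2 difference of the 47 members was -0.13, with 41 members below 0, beside a median of -0.0055 and 50.7% of all 13287 tested genes below 0. Against control 3-8 the members' median was -0.37 with 42 below 0 (all genes: median -0.042, 52.8% below 0), and against control 3-12 it was 0.027 with 21 below 0 (all genes: -0.026 and 53.9%). The controls themselves differed by a signed median of 0.41 over the members (all genes: 0.027), 42 of which were higher in control 3-8. Between the muHuR-KO mice the signed median was 0.0033 (all genes: -0.014), with gaps in both directions, from -0.56 to 0.74. Regardless of direction, the median gap was 0.42 between the controls (all genes: 0.43) and 0.18 between the muHuR-KO mice (all genes: 0.23).

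Control 3-8 was the highest of the 4 libraries for 36 of 47 members, compared with 37.5% of all tested genes, and the lowest for 4 members, compared with 34.9%. Those 4 were Psme4, Psmc6, Psmd1 and Psmd12. Relative to control 3-12 alone, both muHuR-KO libraries were above it for 19 members (28.8% of all genes) and below it for 9 (36.4%). Both muHuR-KO libraries were below both controls for 5 members, Psmb2, Psmc1, Psmd14, Psme3 and Psmg4, or 10.6% against 13.0% of all genes. For no member were they above both controls, against 9.57% of all genes.

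**Figure D1:**
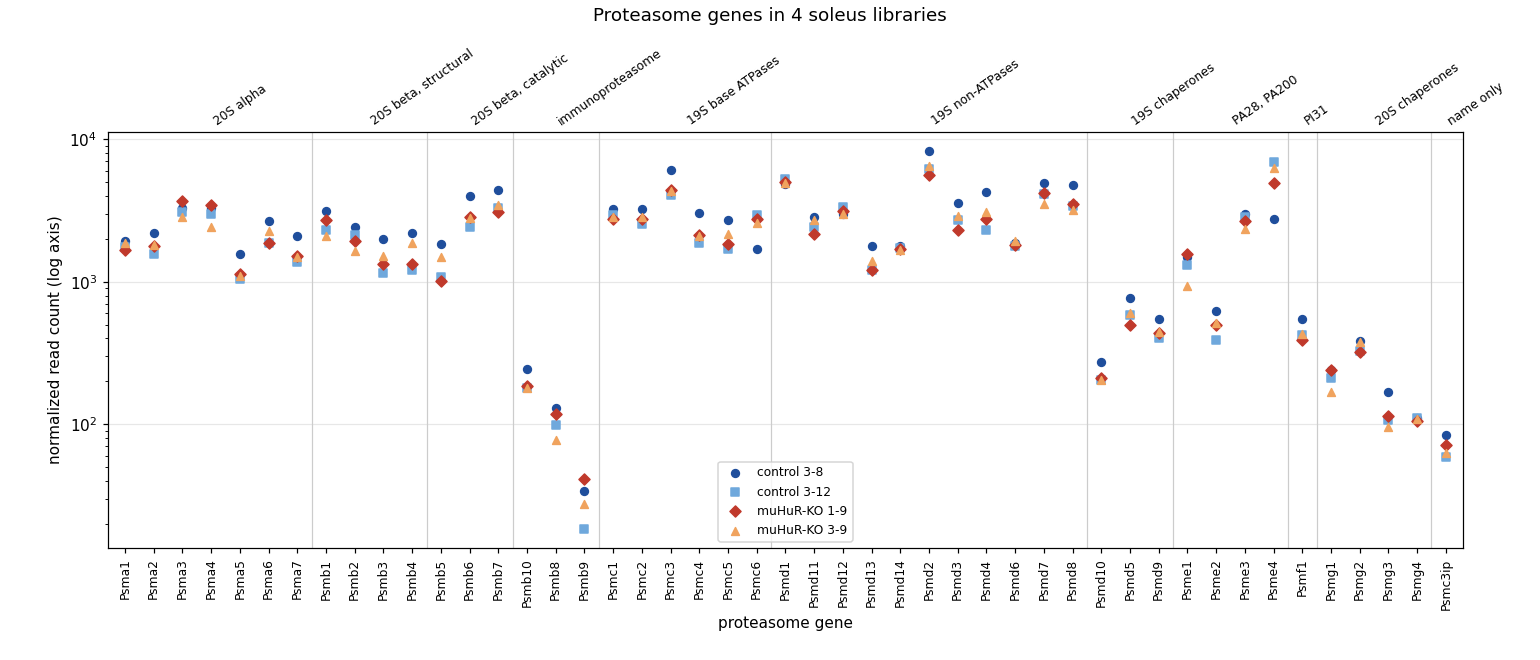
Normalized read counts (log axis) of the 47 tested proteasome genes, ordered by role, with 1 point per library. Control 3-8 is the highest point for 36 genes and the lowest for Psme4, Psmc6, Psmd1 and Psmd12.

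No member passed the test against both controls (limma, adjusted p under 0.05), where 0% of all genes did and the smallest unadjusted p of a member was 0.204. edgeR and DESeq2 on the recovered reads also called 0 members and 0% of all genes, and 0 members had an unadjusted p under 0.05 in limma, beside 0.768% of all genes. Against control 3-12, 0 members and 0% of all genes passed in limma, and 0 members passed in edgeR, beside 0.00753% of all genes, and in DESeq2, beside 0.0677%. Against control 3-8, 1 member was higher, Psme4, beside 9.69% of all genes, and 0 members were lower, beside 0.128%. edgeR called the same single member (10.3% of all genes higher), and so did DESeq2 (9.12% of the genes it gave an adjusted p). Before adjustment, 7 members were lower with a p under 0.05 (Psma5, Psma7, Psmb6, Psmc3, Psmc4, Psmd4 and Psmd8), or 14.9% beside 4.21% of all genes. A further 2 were higher (Psme4 and Psmc6), or 4.26% beside 17.8%. For the 7 members named as lower, differences from control 3-8 ran from -0.55 (Psmd4) to -0.48 (Psma5). Corrected by loess for GC content in each library, Psma5 was at -0.50 and Psma7 at -0.36. Psmb6 was then at -0.24, Psmc3 at -0.26, and Psmc4, Psmd4 and Psmd8 each at -0.32. In the comparisons with a single control only the muHuR-KO pair gives a spread between replicates, with 1 residual degree of freedom. limma moderates it towards the trend over all genes, with 8.34 prior degrees of freedom. A standard error there thus follows the other genes more than the pair itself.

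**Figure D2:**
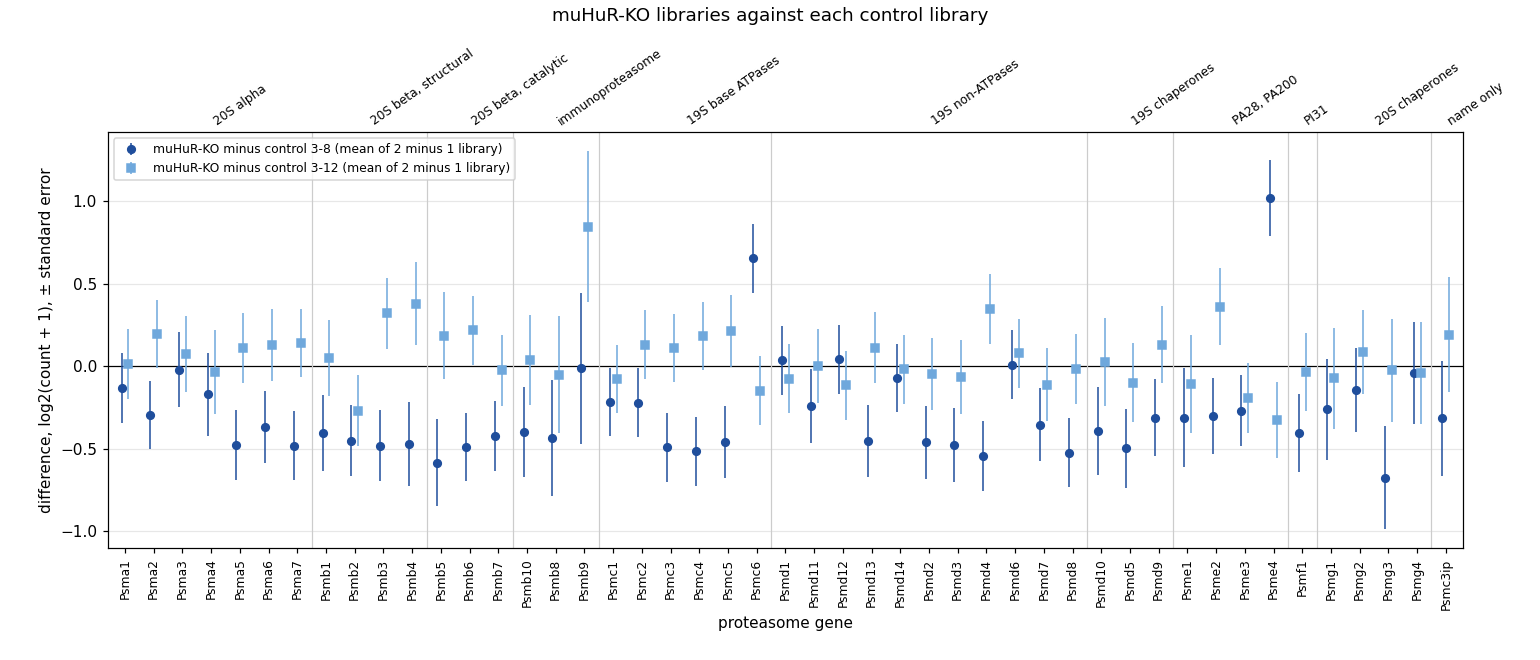
Difference of the mean of 2 muHuR-KO libraries from control 3-8 (circles) and from control 3-12 (squares), on the log2(normalized count + 1) scale with standard errors, for the 47 tested proteasome genes ordered by role. Most circles lie below 0 with a median of -0.37, the squares scatter around 0.027, and Psme4 and Psmc6 have circles far above 0.

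The 7 alpha subunits form the outer rings and the gate of the core. All 7 had a log2 difference below 0 from control 3-8, with a median of -0.29, and 6 of 7 were above control 3-12, with a median of 0.11. Psma7 had normalized counts of 2108 and 1369 in control 3-8 and control 3-12, and 1514 and 1504 in muHuR-KO 1-9 and muHuR-KO 3-9. Control 3-8 was thus the highest, and the muHuR-KO mice lay between the controls, at -0.48 ± 0.21 from control 3-8 (adjusted p = 0.214) and 0.14 ± 0.21 from control 3-12. Psma5 showed the same order, with 1564 and 1039 in the controls and 1142 and 1105 in the muHuR-KO mice and an adjusted p of 0.226 against control 3-8. Psma3 and Psma4 behaved differently, since muHuR-KO 1-9 held the highest count of both. Psma3 counted 3291, 3079, 3677 and 2869 and Psma4 3271, 2976, 3479 and 2429.8 in the order of control 3-8, control 3-12, muHuR-KO 1-9 and muHuR-KO 3-9. The muHuR-KO mice were on either side of the controls for these 2 genes. Psma2, whose GC content was given above, had 2203 and 1569 in the controls and 1777 and 1817 in the muHuR-KO mice, and Psma1 and Psma6 had control 3-8 as their highest library as well.

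The 4 beta subunits without a proteolytic site, Psmb1, Psmb2, Psmb3 and Psmb4, hold the inner rings together. All 4 had control 3-8 as the highest library and differed from it by -0.48 to -0.40. Psmb2 was the only one of them with both muHuR-KO mice under both controls, with 2424 and 2137 in the controls and 1924 and 1636 in the muHuR-KO mice. Its difference from both controls, -0.36 ± 0.26, was the most negative of all 47 members and did not pass the test (adjusted p = 0.9999). Psmb4 had 2189 and 1214 in the controls and 1325 and 1886 in the muHuR-KO mice. muHuR-KO 1-9 lay near control 3-12 and muHuR-KO 3-9 nearer to control 3-8. Psmb3 had the same order of libraries, with 1994 and 1144 in the controls and 1341 and 1523 in the muHuR-KO mice.

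The proteolytic sites of the constitutive core are carried by Psmb6 (beta1, cutting after acidic residues), Psmb7 (beta2, after basic residues) and Psmb5 (beta5, after hydrophobic residues). Psmb6 (chr11:70525367-70527858, plus strand) had 3976 and 2439 in control 3-8 and control 3-12, and 2867 and 2807 in muHuR-KO 1-9 and muHuR-KO 3-9. It was highest in control 3-8 and lowest in control 3-12, with both muHuR-KO mice between them. The difference was -0.49 ± 0.21 from control 3-8 (adjusted p = 0.207) and 0.22 ± 0.21 from control 3-12. Psmb5 (chr14:54614119-54618022, minus strand) counted 1844, 1079.8, 1013 and 1493 in that order, with muHuR-KO 1-9 the lowest and control 3-8 the highest. muHuR-KO 3-9 lay between the controls, so the groups overlapped, and the adjusted p was 0.234 against control 3-8. Psmb7 (chr2:38588036-38644087, minus strand) counted 4379.6, 3322, 3072 and 3471, with muHuR-KO 3-9 again between the controls. Its exons share 405 bases with Nek6 on the other strand. Pseudogenes are annotated for all 3 genes, so reads that fit both copies could have been left out or misassigned.

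The immunoproteasome subunits that can replace them were expressed at low levels in every library. Psmb10 (beta2i; chr8:105935735-105938444) had 242 and 178 in control 3-8 and control 3-12, and 186 and 181 in muHuR-KO 1-9 and muHuR-KO 3-9, and control 3-8 alone stood out. Psmb8 (beta5i; chr17:34197721-34201454) had 129.9 and 99.3 in the controls and 118 and 78.0 in the muHuR-KO mice. muHuR-KO 3-9 was the lowest library and muHuR-KO 1-9 lay between the controls, and the difference from both controls was -0.24 ± 0.36 (adjusted p = 0.9999). Psmb9 (beta1i; chr17:34181987-34187764) had 34.2 and 18.4 in the controls and 41.5 and 27.6 in the muHuR-KO mice, which rest on 35, 10, 56 and 39 reads. The groups overlapped. Its difference from both controls, 0.42 ± 0.49, was the highest of the members, and its standard error was the largest. Exons of Psmb9 overlap those of Tap1 on the other strand by 212 bases and exons of Psmb8 overlap Gm20496 by 498 bases, and the strand setting of the counting is not given in the sources used here.

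On a scale of normalized counts per kilobase of the principal transcript, Psmb6 exceeded Psmb9 by 197, 225, 117 and 172 times in control 3-8, control 3-12, muHuR-KO 1-9 and muHuR-KO 3-9. In the same order Psmb7 exceeded Psmb10 by 20.4, 21.0, 18.7 and 21.7 times, and Psmb5 exceeded Psmb8 by 25.7, 19.7, 15.6 and 34.7 times. The ratio at the beta2 site was nearly level in all 4 mice, whereas at beta5 the lowest and the highest ratio belonged to the muHuR-KO mice 1-9 and 3-9. With all annotated exons as the length, the ratios of the 4-library means were 194, 9.02 and 48.0 for beta1, beta2 and beta5, in place of 168, 20.4 and 23.1, so their size depends on the gene model.

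**Figure D3:**
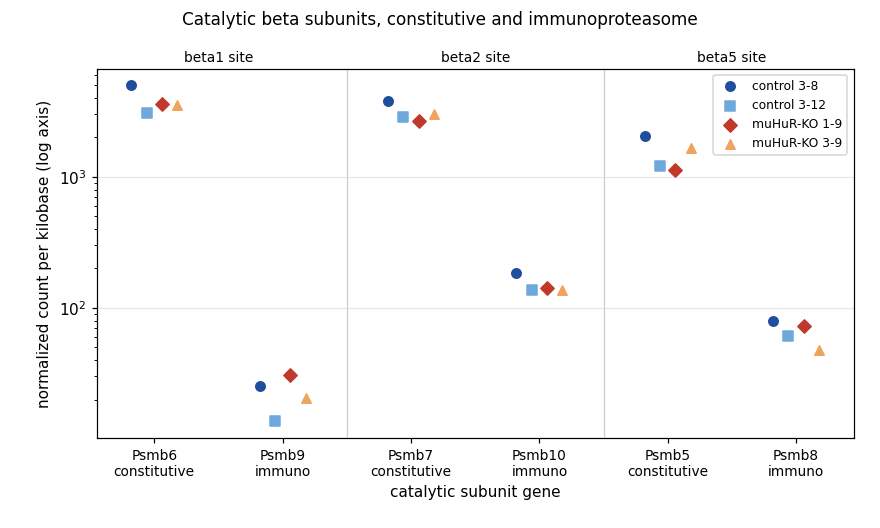
Normalized counts per kilobase of the principal transcript (log axis) of each constitutive catalytic subunit beside the immunoproteasome subunit of the same site, with 1 point per library. Constitutive subunits exceed their immunoproteasome partners at least 15.6-fold in every library, and Psmb8 and Psmb5 run in opposite directions between the muHuR-KO mice.

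The 6 ATPases of the 19S base, Psmc1 to Psmc6, unfold substrates and open the gate. For 5 of them control 3-8 was the highest library, and for Psmc6 it was the lowest. Psmc3 had 6142 and 4049 in control 3-8 and control 3-12, and 4378 and 4368 in muHuR-KO 1-9 and muHuR-KO 3-9, and Psmc4 3038 and 1871 in the controls and 2137 and 2111 in the muHuR-KO mice. For both genes the muHuR-KO mice lay close together and above control 3-12. Against control 3-8, Psmc3 differed by -0.49 ± 0.21 (adjusted p = 0.208) and Psmc4 by -0.52 ± 0.21 (adjusted p = 0.182), while against control 3-12 the differences were 0.11 ± 0.21 and 0.18 ± 0.21. Psmc1 had 3246 and 2939 in the controls and 2757 and 2828 in the muHuR-KO mice, with both muHuR-KO mice below both controls, and a difference of -0.15 ± 0.25 (adjusted p = 0.9999) that was smaller than its standard error.

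Psmc6 (chr14:45329788-45349705, plus strand) went against the other ATPases, with 1693 and 2954 in control 3-8 and control 3-12, and 2753 and 2581 in muHuR-KO 1-9 and muHuR-KO 3-9. Control 3-8 was far below the other 3 libraries, which differed little among themselves. The difference was 0.65 ± 0.21 from control 3-8 (adjusted p = 0.0897), -0.15 ± 0.21 from control 3-12 and 0.25 ± 0.32 from both. Psmc6 also has the lowest GC content of the members, as its printed stretch shows. Its coding sequence has 41.8% GC, against 37.0% in the principal transcript, so a correction by this value rests on the gene model. Among the 139 tested genes within 1 percentage point of its GC content, the median difference from control 3-8 was 1.36, above that of Psmc6 itself. After a loess correction of each library for GC content, Psmc6 differed from control 3-8 by -0.65 ± 0.21 (adjusted p = 0.153), so its direction turned.

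Of the 11 non-ATPase subunits of the 19S particle, 8 were highest in control 3-8 and 2, Psmd1 and Psmd12, were lowest there. Their log2 differences from control 3-8 ran from -0.55 to 0.042 and from control 3-12 from -0.11 to 0.35. The ubiquitin receptor Psmd4 (Rpn10) had 4274 and 2301 in control 3-8 and control 3-12, and 2760.3 and 3107 in muHuR-KO 1-9 and muHuR-KO 3-9. The muHuR-KO mice lay between the controls, whose difference of 0.89 on the log2 scale was the largest positive one of all members. Psmd4 differed by -0.55 ± 0.21 from control 3-8 (adjusted p = 0.169) and 0.35 ± 0.21 from control 3-12. Psmd8 (Rpn12), a lid subunit, had 4818 and 3390.1 in the controls and 3536 and 3180.4 in the muHuR-KO mice and an adjusted p of 0.187 against control 3-8. The large scaffold subunits of the base did not move together. Psmd2 (Rpn1), the member of highest mean normalized count over the 4 libraries, had 8299 and 6232 in the controls and 5626 and 6462 in the muHuR-KO mice, while Psmd1 (Rpn2) had 4861 and 5263 in the controls and 5006 and 4976 in the muHuR-KO mice. Psmd2 was highest in control 3-8, and Psmd1 was close to level in all 4 mice.

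Psmd14 (Rpn11), the deubiquitinase of the lid, had 1777 and 1714 in the controls and 1709 and 1676 in the muHuR-KO mice. Both muHuR-KO mice were below both controls, but the whole spread was small, with a difference of -0.045 ± 0.25 from both controls (adjusted p = 0.9999). Psmd11 (Rpn6), which clamps the lid to the core, had 2868 and 2426 in the controls and 2179 and 2713 in the muHuR-KO mice, so muHuR-KO 3-9 lay between the controls and muHuR-KO 1-9 below them. Psmd3 followed the same order, with 3602 and 2704 in the controls and 2322 and 2888 in the muHuR-KO mice. Psmd6 and Psmd12 were nearly level in the 4 mice, with 1858, 1771, 1814 and 1931 and 2986, 3329, 3162 and 2989.7 in the order used above. The remaining subunits Psmd7 and Psmd13 were highest in control 3-8, and Psmd13 shares 342 exonic bases with Sirt3.

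The chaperones of the 19S base, Psmd5, Psmd9 and Psmd10 (gankyrin), escort the ATPases during assembly and are not part of the finished particle. All 3 were highest in control 3-8, with differences from it of -0.50 ± 0.24, -0.31 ± 0.23 and -0.39 ± 0.26. Psmd5 had 769 and 583 in the controls and 494 and 599.7 in the muHuR-KO mice, and Psmd10 had 273 and 204 in the controls and 211 and 206 in the muHuR-KO mice. The muHuR-KO mice lay close to control 3-12 for Psmd10, and for Psmd5 they lay on either side of it. Psmd9 shares 1849 exonic bases with Gm26745 on the other strand.

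Psme4 (chr11:30771726-30880361, plus strand) encodes PA200, a large nuclear activator that caps the core. Without a correction for GC content, it was the only member that passed the adjusted test in any of the 3 comparisons. Its counts were 2747 and 6983 in control 3-8 and control 3-12, and 4969 and 6262 in muHuR-KO 1-9 and muHuR-KO 3-9. Control 3-8 was far below the other 3 libraries, and control 3-12, not a muHuR-KO mouse, was the highest. Psme4 differed by 1.02 ± 0.23 from control 3-8 (adjusted p = 0.0221), by -0.32 ± 0.23 from control 3-12 (adjusted p = 0.9998) and by 0.35 ± 0.43 from both controls (adjusted p = 0.9999). Against control 3-8, edgeR gave an adjusted p of 0.0174 and DESeq2 one of 0.00365. The controls differed from each other by -1.35, more than the muHuR-KO mean differed from either of them. The median difference from control 3-8 of the 1130 genes within 1 percentage point of its GC content was 0.48, so Psme4 lay above genes of like GC content. Its principal transcript, of 6491 bases, is also the longest of the members. Over the 13199 genes with a known transcript, Spearman's rho of transcript length with the difference from control 3-8 was 0.38. Corrected for length instead of GC content, Psme4 differed from control 3-8 by 0.64. After GC correction its difference was 0.50 ± 0.23 with an adjusted p of 0.340, and with no filter on low values or no trend in the variance the adjusted p was 0.280 or 0.112.

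The PA28 activators did not follow Psme4. Psme1 and Psme2 encode PA28 alpha and beta, which are induced by interferon and act with the immunoproteasome. Psme1 (chr14:55578123-55581529) had 1505 and 1308 in control 3-8 and control 3-12, and 1569.9 and 938 in muHuR-KO 1-9 and muHuR-KO 3-9. muHuR-KO 1-9 was the highest of the 4 libraries and muHuR-KO 3-9 the lowest, the widest gap between the muHuR-KO mice among the members (0.74 on the log2 scale). Psme2 had 619 and 389.97 in the controls and 494 and 509.6 in the muHuR-KO mice, where the muHuR-KO mice agreed within 0.046 and lay between the controls. Psme3 encodes the nuclear PA28 gamma and had 3012 and 2855 in the controls and 2679 and 2332 in the muHuR-KO mice. Both muHuR-KO mice were below both controls, with a difference of -0.23 ± 0.25 (adjusted p = 0.9999). Psmf1 encodes PI31, which inhibits the core in vitro, and had 545 and 421 in the controls and 393 and 430.2 in the muHuR-KO mice. Control 3-8 stood above the other 3 libraries.

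The chaperones Psmg1 to Psmg4 build the alpha ring. Psmg3 had 168 and 107 in the controls and 115 and 95.7 in the muHuR-KO mice, and its difference of -0.67 ± 0.31 from control 3-8 was the most negative among the members (adjusted p = 0.243). Its difference from control 3-12 was -0.025 ± 0.31. Psmg1 was split between the muHuR-KO mice, with 241 and 212 in the controls and 242 and 167 in the muHuR-KO mice. Psmg4 was nearly equal in all mice, with 110.3 and 110.4 in the controls and 105 and 109 in the muHuR-KO mice, although both muHuR-KO mice were just under both controls. Psmg2 had 384 and 327 in the controls and 319 and 379 in the muHuR-KO mice. The testis subunit Psma8 had 0 to 1.95 normalized counts per library and the thymus subunit Psmb11 0 to 2.13, too few to test. Psmc3ip, a meiotic factor, had 84.0 and 58.9 in the controls and 71.9 and 63.1 in the muHuR-KO mice.

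Levels per kilobase differed among subunits that are present in equal number in the particle. Within the 14 constitutive core genes the 4-library mean ran from 633 for Psma2 to 3787 for Psmb6, a 5.99-fold range, and within the 17 genes of the 19S particle from 703 for Psmd13 to 2894 for Psmc3, a 4.11-fold range. With all annotated exons as the length, the core ran from 501 for Psma2 to 1759.7 for Psma6, a 3.51-fold range, and the 19S particle from 399 for Psmd11 to 1854 for Psmd7, a 4.65-fold range, so apart from Psma2 the genes at the ends depend on the gene model. Summed over the core, the levels per kilobase were 32339 and 23224 in control 3-8 and control 3-12, and 24684 and 24844 in muHuR-KO 1-9 and muHuR-KO 3-9. Summed over the 19S particle they were 34003, 26874, 27130.3 and 27739 in that order. Both sums were highest in control 3-8, and the other 3 mice lay close together. The chaperones were far less abundant, with 4-library means from 137 to 333 per kilobase.

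Partners of the proteasome that do not carry a Psm name were read from lists of known components. Of 12 other parts and partners, 2 passed the test as higher against control 3-8 and 0 as lower, and 0 passed in either direction against control 3-12 or both controls. Of all tested genes, 9.69% were higher and 0.128% lower than in control 3-8 and 0% passed in the other comparisons, which is also the background of the lists that follow. AI314180, listed by RefSeq as Ecpas, the scaffold that joins the 19S particle to the core, had 3468 and 6661 in control 3-8 and control 3-12, and 6243 and 6211 in muHuR-KO 1-9 and muHuR-KO 3-9. Its difference was 0.84 ± 0.21 from control 3-8 (adjusted p = 0.0344) and -0.097 ± 0.21 from control 3-12. Uchl5, a deubiquitinase of the 19S particle, had 222 and 543 in the controls and 481 and 425 in the muHuR-KO mice, with 1.02 ± 0.24 from control 3-8 (adjusted p = 0.0283). As for Psme4 and Psmc6, only control 3-8 was low. After GC correction the differences from control 3-8 were 0.35 (adjusted p = 0.495) for AI314180 and 0.12 (adjusted p = 0.862) for Uchl5. Adrm1, the ubiquitin receptor that holds Uchl5, had 2502 and 1639 in the controls and 1715 and 1842 in the muHuR-KO mice instead, highest in control 3-8 like most subunits. Pomp, which completes assembly of the core, had 1871 and 1580.1 in the controls and 1543 and 1435 in the muHuR-KO mice, and both muHuR-KO mice were below both controls.

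Of 11 genes of the NRF1 axis, 0 passed the test in any of the 3 comparisons. Nfe2l1 itself had 32286 and 28911 in control 3-8 and control 3-12, and 18819.9 and 27541 in muHuR-KO 1-9 and muHuR-KO 3-9, and both muHuR-KO mice were below both controls, with a difference of -0.42 ± 0.30 (adjusted p = 0.9999). Vcp, the segregase that extracts NRF1 from the membrane of the endoplasmic reticulum, had 13255 and 12297 in the controls and 10744 and 12282 in the muHuR-KO mice. The protease gene Ddi2, which activates NRF1, was nearly level, with 370.1 and 405 in the controls and 399 and 397 in the muHuR-KO mice. Among 5 genes of ubiquitin and its E1 enzymes, the ubiquitin gene Ubb was highest in control 3-8, with 11753, 7032, 7701 and 7951 in the order of control 3-8, control 3-12, muHuR-KO 1-9 and muHuR-KO 3-9. Uba6, an alternative E1 enzyme, was the 1 gene of these 5 that passed the test, with 64.4 and 254 in the controls and 162 and 206 in the muHuR-KO mice and a difference of 1.49 ± 0.30 from control 3-8 (adjusted p = 0.0148). After GC correction the difference was 0.22 (adjusted p = 0.782). The main E1 gene Uba1 had 6065 and 5263 in the controls and 4411 and 4379 in the muHuR-KO mice. None of the 7 tested shuttle factors passed.

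The order of the muHuR-KO mice in Psme1, with 1-9 above 3-9, was shared by 10 of 13 genes of MHC class I presentation and by 12 of the 12 tested markers of leukocytes, cells that use the immunoproteasome, beside 48.2% of all tested genes. B2m, the light chain of MHC class I, had 4694 and 5125 in control 3-8 and control 3-12, and 7561 and 3244 in muHuR-KO 1-9 and muHuR-KO 3-9. Irf1, a transcription factor of the interferon response, had 370.1 and 281 in the controls and 425 and 254 in the muHuR-KO mice. In both, muHuR-KO 1-9 was the highest library and muHuR-KO 3-9 the lowest. Of the 13 genes, 4 were highest in muHuR-KO 1-9, beside 21.2% of all tested genes, and 6 in control 3-8, and Tap2, Erap1 and Canx had muHuR-KO 3-9 above muHuR-KO 1-9. Summed over 14 leukocyte markers, the normalized counts were 1786 and 1781 in control 3-8 and control 3-12, and 2649.9 and 1309 in muHuR-KO 1-9 and muHuR-KO 3-9, and 11 of the 12 tested markers were highest in muHuR-KO 1-9, beside 21.2% of all tested genes. The markers ran from Cd3e, of T cells, at 0 to 0.977 counts to Cd74, of antigen-presenting cells, at 737, 640.1, 808 and 440.2 in the order used above. Lyz2, of myeloid cells, had 388, 432, 681 and 311 and Ptprc (CD45) 19.5, 90.1, 79.3 and 55.3 counts. Of the 47 members, 24 had muHuR-KO 1-9 above muHuR-KO 3-9, 5 of them by over 1.3 times, and 2 had the reverse by over 1.3 times. Those 5 were Psme1, Psmb8 and Psmb9, with log2 gaps of 0.74, 0.59 and 0.57, and Psmg1 and Psma4, with 0.53 and 0.52. Psmb10 and Psme2 had gaps of 0.041 and -0.046. The part of leukocytes in these values was not tested. Of the genes of MHC class I presentation, 0 passed the test in any comparison. Of the leukocyte markers, 1 did, Ptprc, which was higher than in control 3-8 (1.71 on the log2 scale, adjusted p = 0.0248), and after GC correction its difference was 0.90 (adjusted p = 0.294).

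Markers of fiber type varied among the libraries. The 7 slow fiber markers were all highest in control 3-8, beside 37.5% of all tested genes. Their differences from control 3-8 ran from -0.91 (Tnni1) to -0.41 (Atp2a2), and after GC correction from -0.67 (Tnni1) to -0.32 (Atp2a2). Tnni1, the slow troponin I, had 64183 and 29519.6 in control 3-8 and control 3-12, and 28049 and 41484 in muHuR-KO 1-9 and muHuR-KO 3-9. Of 8 fast fiber markers, 5 were also highest in control 3-8 (Myh4, Tnni2, Tnnc2, Mylpf and Atp2a1). In the difference from control 3-8, 6 lay below 0, beside 52.8% of all tested genes. Myh4, the IIb myosin, had 21982 and 1702 in the controls and 18766 and 2021 in the muHuR-KO mice, high in 1 mouse of each group, and Myh1, the IIx myosin, had 54545 and 229802 in the controls and 152186 and 158075 in the muHuR-KO mice and was lowest in control 3-8. Myh1 differed from it by 1.51 ± 0.32 (adjusted p = 0.0176), and by 1.67 (adjusted p = 0.0521) after GC correction. The part of fiber type in the proteasome values was not tested.

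Across the 47 members, Spearman's rho of GC content with the difference from control 3-8 was -0.59, close to the -0.60 over all tested genes, and with the difference from control 3-12 it was 0.28. Without Psme4 and Psmc6 the value for control 3-8 was -0.54 over 45 members. These points share the same 4 libraries. In the comparison with control 3-8, the members lay mostly below genes of like composition. Psma2 differed from control 3-8 by -0.29 ± 0.21, where the median of 467 genes within 1 percentage point of its GC content was 1.09, and Psmb6 differed by -0.49 ± 0.21, where that median was -0.31. After GC correction the members' median difference from control 3-8 was -0.32 with 44 of 47 below 0, the calls over all genes went from 1287 higher and 17 lower to 27 higher (0.205%) and 12 lower (0.0909%), and among the members 0 were higher and 1, Psma2, was lower (-1.34 ± 0.21, adjusted p = 0.0489). With the GC content of the longest annotated transcript in its place, 5 members were lower (Psma2, Psmb7, Psmc2, Psmd10 and Psmd11), beside 1.42% of all genes, and 0 were higher, beside 2.14%. For Psmb7, Psmc2 and Psmd11 that transcript has 40.8%, 41.3% and 39.9% GC, in place of 48.7%, 48.7% and 47.9% in the principal transcript, so these calls depend on the gene model. For Psma2 both settings use 39.4% GC, whereas its coding sequence has 48.1%. The change of transcript thus does not test the call of Psma2, which rests on that gene model. Against both controls and against control 3-12, 0 members passed after either correction.

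**Figure D4:**
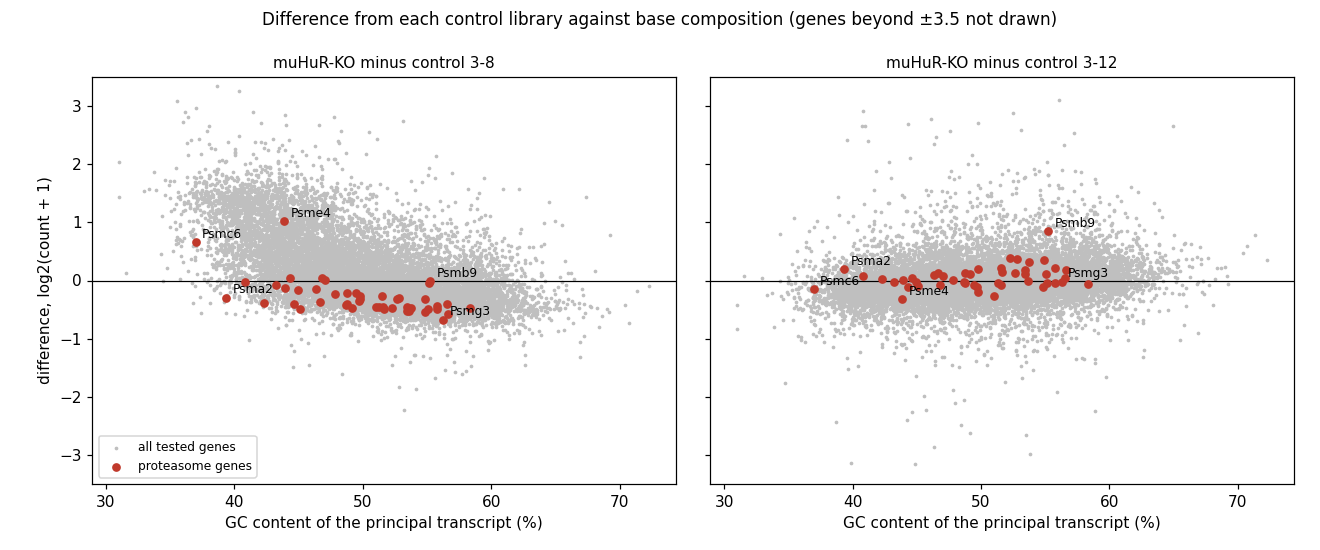
Difference of the muHuR-KO mean from control 3-8 (left) and from control 3-12 (right), on the log2(normalized count + 1) scale, against the GC content of the principal transcript in percent, for all tested genes (grey) and the 47 proteasome genes (red). Against control 3-8 the cloud of all genes falls from left to right (rho -0.60), Psmc6 and Psme4 lie above 0, and most proteasome genes lie in its lower part.

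Sequences around the transcription start, from 250 bases before to 50 bases after it, were matched in RefSeq (GRCm38.p6) for 41 of the 49 members. The core of the antioxidant response element, which NRF1 binds (TGACNNNGC, either strand), was found in 6 of the 41, Psmb5, Psmb6, Psmc6, Psmd9, Psmd12 and Psme4, or 14.6% beside 12.4% of all promoters. CCAAT, the box of NF-Y, was found in 15, or 36.6% beside 37.4%. CCGGAAG, the core bound by ETS factors, was also found in 15 (either strand), or 36.6% beside 8.86%. For all 3 motifs the member share counts genes, 41 with 44 promoters, whereas the background counts promoters, 32851 in all. The background was not matched for expression in the soleus or for GC content. The free positions of the first motif can hold letters of the others, and a match says only that the letters are present. The members with the ETS core were spread over the roles, from Psma6 in the alpha ring over Psmc1, Psmc2 and Psmc6 in the base to Psmd2, Psmd4, Psmd6, Psmd11, Psmd12 and Psmd13 in the rest of the 19S particle, and they included both Psme4 and Psmc6 as well as genes that were highest in control 3-8.

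The ETS core was found in a larger share of the member genes than of all promoters, so stretches with it in capitals are shown. It reads CTTCCGG where it lies on the opposite strand. The stretches lie upstream of the RefSeq start and outside annotated exons. That of Psma6 lies inside its GENCODE gene (chr12:55384222-55418454), which starts further upstream. The positions are Psma6 at chr12:55398678-55398714 (plus strand), Psmc6 at chr14:45329709-45329745 (plus strand), Psmd2 at chr16:20651611-20651647 (plus strand), Psmd4 at chr3:95042718-95042754 (minus strand) and Psme3 at chr11:101316091-101316127 (plus strand).
Psma6: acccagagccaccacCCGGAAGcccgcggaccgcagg
Psmc6: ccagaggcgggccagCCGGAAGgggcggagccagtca
Psmd2: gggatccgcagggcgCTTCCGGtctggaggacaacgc
Psmd4: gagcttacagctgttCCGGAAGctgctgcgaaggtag
Psme3: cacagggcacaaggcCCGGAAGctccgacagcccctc

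The antioxidant response core lay upstream of the RefSeq start and outside exons in Psmc6 at chr14:45329582-45329620 (plus strand), where it is on the opposite strand, and Psmd9 at chr5:123228144-123228182 (plus strand).
Psmc6: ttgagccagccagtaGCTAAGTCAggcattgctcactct
Psmd9: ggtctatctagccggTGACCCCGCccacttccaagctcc

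Psmc6 thus carries both cores before its start. Psmd9 carries the antioxidant response core 22 bases before a RefSeq start, at a site inside its GENCODE gene (chr5:123169413-123250131), which starts further upstream. Psmc6 was lowest in control 3-8 and Psmd9 was highest there, so members with the same core did not share an order of the libraries.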

How the data were processed

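Soleus RNA of 2 muHuR-KO and 2 control mice was sequenced (Illumina NextSeq, paired ends). The deposited signal columns are the authors' normalized counts: per the submitters' processing notes reads were aligned with TopHat2 2.0.10 to GRCm38 (mm10), counted with HTSeq 0.6.1 and scaled by DESeq2. Its version, the annotation, strand setting and filters are not given in the sources used here. Columns of the authors' own comparison (log2 fold changes, standard errors, p-values) were not used.

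Whole reads were recovered for 100% of values (within 0.01). log2(value + 1) of 13287 genes with a mean of at least 10 was fitted with limma 3.58.1 (eBayes with trend; two-sided, Benjamini-Hochberg). edgeR 4.0.16 and DESeq2 1.42.0 were run on the recovered reads, with further alternatives in filter, pseudocount, scaling, and GC or length (loess, span 0.4). Fits were tested on simulated data. Transcripts come from GENCODE M21, the principal (APPRIS) one for GC and length. Differences are log2 with standard errors, and understate low genes. Named genes were the catalytic subunits, activators and PI31, the extremes of each role, and every member with an unadjusted p under 0.05. Of the other lists, genes past the threshold and up to 4 of smallest p were planned. Others were named after their values were seen. The members and lists were chosen with earlier results of these data known.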

Additional observations from a re-analysis of the deposited data

How the results depend on the processing

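Without a filter on low values, or without a trend in the variance, 0 members were higher than in control 3-8, where 1 was in the reported fit. The cause was not tested. GC correction gave 0 higher and 1 lower, GC correction by the longest transcript 0 and 5, GC correction without control 3-12 0 and 2, and a correction for transcript length 0 higher, with a members' median of -0.19. Psme4 was the 1 member called with pseudocounts of 0.5 and 5, with a minimum mean of 50, and with edgeR, DESeq2 or TMM factors. Over all genes the calls against control 3-8, 1287 higher and 17 lower, were 0 and 0 without the filter or the trend, 27 and 12 with GC correction (282 and 187 by the longest transcript, 182 and 86 without control 3-12) and 611 and 44 with length correction. Without either muHuR-KO library the comparisons with a single control have no test. The corrections for length, by the longest transcript and without control 3-12 were chosen after seeing the data.

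Of the 47 members, 0 to 9 changed sign in a comparison under the alternatives that kept all muHuR-KO libraries, and 0 to 12 with 1 library left out. None of those that turned was called on either side. Under GC correction 7 turned against both controls (Psma3, Psmb3, Psmb4, Psmc6, Psmd4, Psmd6 and Psmg4), 6 against control 3-8 (Psmb9, Psmc6, Psmd1, Psmd6, Psmd12 and Psmg4) and 6 against control 3-12 (Psma4, Psmb7, Psmb10, Psmc6, Psmd14 and Psmf1). Values follow for the catalytic subunits, the activators, PI31 and the other members whose own difference is reported. Under GC correction, Psmc6 was -0.30 against both controls, -0.65 against control 3-8 (-0.64 without control 3-12) and 0.046 against control 3-12, Psmb9 was 0.226 against control 3-8 (0.225 without control 3-12), Psmd4 was 0.0029 against both controls, and against control 3-12 Psmb7 was 0.013, Psmb10 -0.0078, Psmf1 0.0026 and Psmd14 0.082. By the longest transcript, Psmc6 was -0.25, -0.52 and 0.026 in those 3 comparisons, Psmb9 0.20 against control 3-8, and Psmb7 0.099, Psmb10 -0.0085 and Psmd14 0.072 against control 3-12. Under length correction Psmb9 was 0.20 against control 3-8, Psmb10 -0.035, Psmf1 0.0047 and Psmd10 -0.040 against control 3-12, and Psmd14 0.015 against both controls and 0.11 against control 3-8. With TMM factors Psmb7, Psmf1, Psmd8, Psmd14 and Psmg3 were 0.019, 0.0092, 0.028, 0.026 and 0.019 against control 3-12, Psmb9 was 0.038 against control 3-8 and Psmd14 0.0030 against both controls. With edgeR these values were 0.022, 0.010, 0.031, 0.026, 0.025, 0.067 and 0.0029, and Psmb8 was 0.024 against control 3-12. With DESeq2 Psme2 was -0.0024 against both controls. With 1 muHuR-KO library left out, the difference from both controls ran from -0.48 to 0.081 for Psmb5, from -0.54 to 0.053 for Psmb8, from -0.58 to 0.16 for Psme1 and from 0.18 to 0.52 for Psme4, and 31 of the 47 members moved by over 1.5 times or changed sign, all uncalled. The groups share no whole mouse number, but 3 of the 4 mice share the number before the hyphen, whose meaning the labels do not give. With it as a replicate block, chosen after seeing the data, muHuR-KO 1-9 drops out of the difference, 0 members were called, their median was -0.13 and Psmb5 turned to 0.081. Psmb9 rests on 10 to 56 reads a library, the fewest of the tested members.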
